A study of Mus musculus with 21 samples.

Results

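Hormone genes of the hypothalamus and the pituitary, 10 in number, were followed in mouse brain in which a long intergenic noncoding RNA (lincRNA) gene had been deleted. They were Pomc, Gh, Prl and Cga, which encode hormones of the anterior pituitary, and Avp, Oxt, Hcrt, Trh, Agrp and Gnrh1, which encode hypothalamic peptides. The 10 genes were chosen by symbol, with their values at P7 already known, in particular a low level of Pomc in the linc-Brn1b knockout. All 10 were found among the 40770 genes of the linc-Brn1b table and the 42760 genes of the Peril table.

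For linc-Brn1b, telencephalon was taken at E13.5 and at E15.5, and the whole brain at P7, each as linc-Brn1b+/+ (wild type) and linc-Brn1b-/- (knockout). The Peril groups were brain at E18.5, wild type or homozygous knockout, for a lincRNA that the labels name linc-Sox2. Each group had 2 libraries, except that the labels list 3 for the linc-Brn1b knockout at E15.5, and which of these entered the table is not known. In both strains the lincRNA gene had been replaced with lacZ and a neo gene that was driven by the human ubiquitin C promoter and flanked by LoxP sites. The targeted ES cells were hybrids with C57BL/6N as the paternal strain, the mice were backcrossed once to C57BL/6J, and wild types were littermates of the knockouts. Values are FPKM (fragments per kilobase of transcript, scaled to the number of mapped fragments), and the authors' tables hold 1 value per group. Neither the number of fragments nor the spread among animals is known from them, and no SD, interval or test is given for any difference.

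The hypothalamus releases peptides that act on the pituitary, on the kidney and uterus, and on other neurons. Its magnocellular neurons make vasopressin (Avp) and oxytocin (Oxt), and its lateral part makes hypocretin (Hcrt). Thyrotropin-releasing hormone (Trh) and gonadotropin-releasing hormone (Gnrh1) reach the anterior pituitary through the portal blood. Pomc is the precursor of adrenocorticotropin in pituitary corticotrophs and of melanocortins in pituitary melanotrophs and in neurons of the arcuate nucleus, where Agrp marks neurons with the opposite effect on feeding. Gh, Prl and Cga encode growth hormone, prolactin and the alpha subunit shared by the glycoprotein hormones, all made chiefly in the pituitary, a gland attached below the hypothalamus.

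The promoters of Pomc, Gh and Cga are shown because these 3 genes had a similar course over the linc-Brn1b groups. That course rests on P7 wild type, where Cga too was under 1 FPKM. Other genes, such as Hoxa5, followed Pomc as closely as Gh did, and a shared control of these promoters was not tested. Each run holds the 250 bases before the start of the gene in the linc-Brn1b table, 5′ to 3′ on the gene's strand, read from build NCBIM37 (mm9), with the letters TATAAA of a TATA box in capitals. They lie at chr12:3954701-3954950 on the plus strand for Pomc, at chr11:106163125-106163374 on the minus strand for Gh, and at chr4:34840778-34841027 on the plus strand for Cga. The table starts Gh 55 bases inside the gene annotated by GENCODE, and Pomc and Cga at the annotated start.
Pomc: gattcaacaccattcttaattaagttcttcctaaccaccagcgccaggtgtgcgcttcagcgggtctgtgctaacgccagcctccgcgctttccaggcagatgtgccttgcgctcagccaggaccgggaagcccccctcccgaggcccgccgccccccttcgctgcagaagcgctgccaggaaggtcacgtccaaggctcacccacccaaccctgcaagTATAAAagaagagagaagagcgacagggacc
Gh: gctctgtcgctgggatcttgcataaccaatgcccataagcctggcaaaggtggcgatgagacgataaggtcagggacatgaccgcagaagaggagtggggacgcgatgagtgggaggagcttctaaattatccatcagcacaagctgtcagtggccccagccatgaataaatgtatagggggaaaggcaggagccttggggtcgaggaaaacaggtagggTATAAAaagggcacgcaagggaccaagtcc
Cga: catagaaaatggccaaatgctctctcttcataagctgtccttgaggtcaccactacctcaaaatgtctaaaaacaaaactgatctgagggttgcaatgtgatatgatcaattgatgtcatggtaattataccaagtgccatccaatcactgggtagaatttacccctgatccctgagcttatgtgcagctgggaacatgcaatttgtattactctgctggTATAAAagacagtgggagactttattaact
TATAAA stood 31 to 26 bases before the start in Pomc and 30 to 25 bases before it in Gh and in Cga. On either strand it was found in 1656 of 12143 promoters of the same length (13.6%), taken from protein-coding genes with a locus of their own. The letters TAATCC (Pitx motif), TCACACC (T-box motif) and TGACGTCA (cyclic AMP response element) were not in these 3 windows on either strand. They were in 6.28%, 3.12% and 1.98% of promoters. Only these exact letters within the 250 bases were searched, so sites with a changed base or farther from the start were not looked for. Whether these promoters lack such sites is therefore not known. The GC content was 60.8% for Pomc, 53.6% for Gh and 40% for Cga.

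Avp and Oxt are neighbours on chromosome 2. Oxt spans chr2:130401909-130402790 on the plus strand, Avp spans chr2:130406356-130408290 on the minus strand, and 3565 bases lie between them. The 27 coding bases of their 9-residue peptides are shown 5′ to 3′ because the products differ by so little, with the 5 bases that differ in capitals.
Oxt: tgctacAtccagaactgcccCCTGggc
Avp: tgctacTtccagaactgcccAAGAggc
Counted from 1 at the first base shown, with the base of Oxt first, the differences are A7T, C21A, C22A, T23G and G24A, which fall in 3 of the 9 codons and change 2 residues. The neurophysin part of the precursors also contains an identical run of 127 coding bases, at bases 156 to 282 of the Oxt transcript and 144 to 270 of the Avp transcript in GENCODE.
Shared run: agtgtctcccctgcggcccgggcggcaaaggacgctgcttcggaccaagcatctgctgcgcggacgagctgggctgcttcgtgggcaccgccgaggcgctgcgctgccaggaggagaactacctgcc
Of the 488 windows of 50 bases in the Oxt transcript, 78 (16%) were identical in Avp. How the authors' counting split reads within that run was not tested, so the levels of Oxt and Avp may not be fully separate.

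In the GENCODE annotation of the same build the members are protein-coding genes of 2 to 5 exons. Pomc, of 3 exons, spans chr12:3954951-3960618, and Gh and Cga, of 5 exons each, span chr11:106161585-106163179 and chr4:34841028-34854619. Prl lies on chromosome 13, Hcrt on 11, Trh on 6, Agrp on 8 and Gnrh1 on 14. Of the 10 members, 9 had a locus of their own in the linc-Brn1b table. The exception was Agrp, whose locus spanned 116822 bases and was shared by 7 entries, and its level is uncertain. In the Peril table Hcrt also shared its locus, with 3 entries in all.

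As a check of the labels, linc-Brn1b was at 1.60, 2.50 and 0.799 FPKM in wild type at E13.5, E15.5 and P7 and was listed at 0 in the knockout at all 3 ages. Its neighbour Pou3f3 (Brn1) was at 81.5, 82.5 and 22.7 FPKM in wild type, against 36.5, 29.2 and 5.81 FPKM in the knockout. For Peril, the entry linc-Atp11b-4, which overlaps the locus, stood at 0.0109 FPKM in the group labelled wild type and at 4.65 FPKM in the group labelled knockout. It does not check the deletion, and whether the columns are exchanged was not tested. The genotypes of the Peril table were read from its column names, in the order that the linc-Brn1b table uses, and no value checks them. Each Peril direction therefore rests on these labels.

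At P7 Pomc and Gh were lower in the linc-Brn1b knockout, and the hypothalamic peptide genes Avp, Oxt and Hcrt were higher. Pomc stood at 26.6 FPKM in wild type against 1.15 FPKM in the knockout, which is 4.32% of the wild-type level. Gh stood at 6.19 FPKM in wild type against 0.0157 FPKM in the knockout, or 0.253%. Avp, by contrast, was at 2.98 FPKM in wild type against 11.1 FPKM in the knockout, a ratio of 3.72. These P7 values helped choose the genes, so they are a description and support nothing further.

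**Figure D1:**
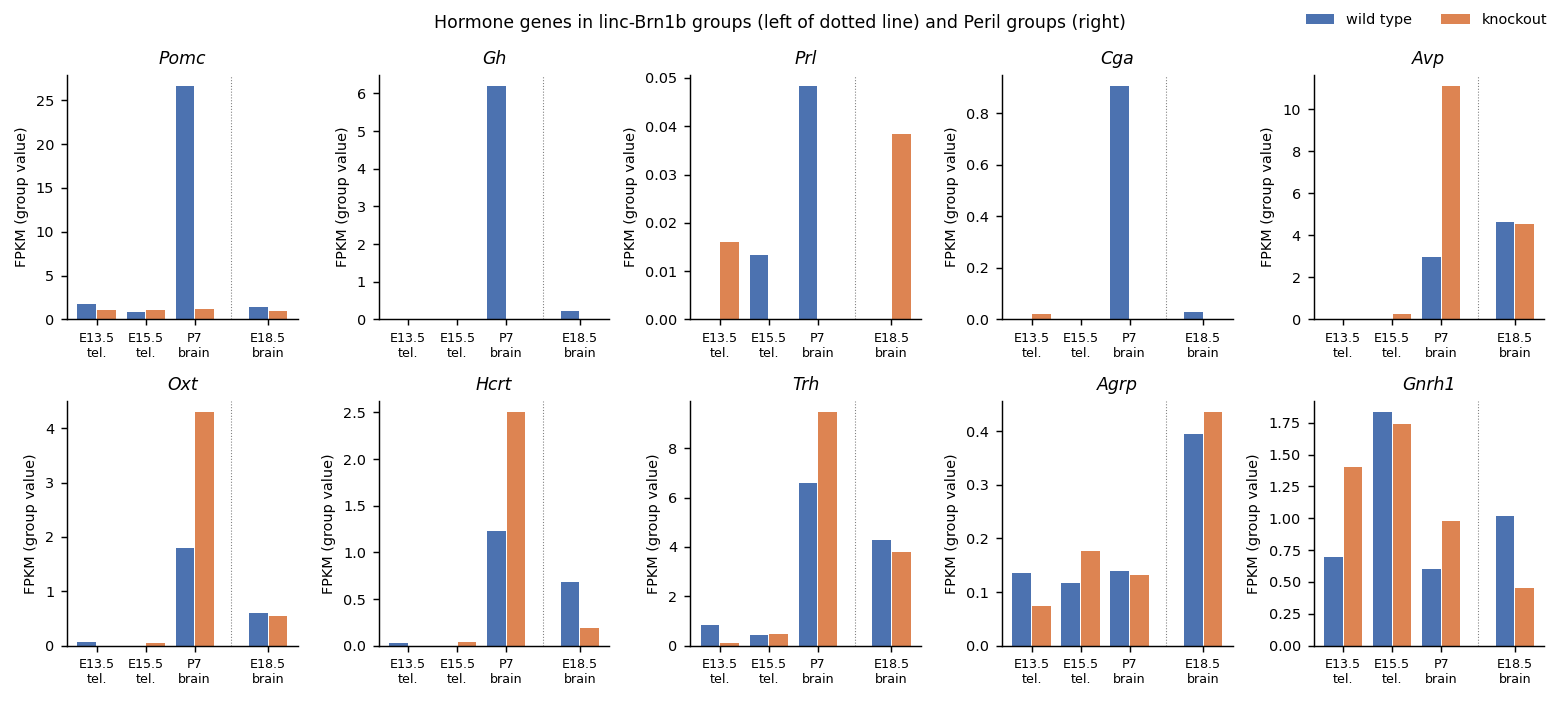
FPKM of the 10 hormone genes in wild type (blue) and knockout (orange), 1 bar per group, with linc-Brn1b telencephalon (tel.) at 2 embryonic ages and its whole brain at P7, and brain at E18.5 for Peril to the right of the dotted line. Each panel has its own linear axis from 0. Pomc reached 26.6 FPKM in P7 wild type and at most 1.80 FPKM in the other groups.

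A gene was called different where log2(FPKM + 1) differed by at least 1.5-fold (0.58 on the log2 scale) and at least 1 of the 2 groups was at 1 FPKM or more, a rule of size and not a test. Differences are the knockout minus wild type on that scale, which understates changes of low genes. At P7, 6 of the 10 members passed the minimum, of which 2 were lower and 3 higher past 1.5-fold. Among all 14521 genes past the minimum, 2.42% were lower and 2.16% were higher. Prl, Cga, Agrp and Gnrh1 were under 1 FPKM in both genotypes.

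On the log2 scale Pomc differed by -3.68, the third lowest of the 14521 genes, and Gh by -2.82, the seventh lowest. Cga, at 0.906 FPKM in wild type, was listed at 0 in the knockout, a difference of -0.93 in a gene under the minimum level. Prl, which lactotrophs of the pituitary make, was at 0.0483 FPKM in wild type and listed at 0 in the knockout. Pomc and Gh were thus the 2 of the 4 pituitary hormone genes called lower. Summed, the 4 were at 33.8 FPKM in wild type against 1.17 FPKM in the knockout, and nearly all of that lay in Pomc and Gh.

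Avp differed by 1.60 on the log2 scale and ranked 26 from the top of all genes. Oxt was at 1.80 FPKM in wild type against 4.29 FPKM in the knockout, a difference of 0.92. Hcrt, whose peptide promotes wakefulness, was at 1.23 FPKM and 2.50 FPKM, a difference of 0.65 that was just past the 1.5-fold line. Trh did not reach the line, at 6.58 FPKM and 9.45 FPKM and a difference of 0.46. Summed over these 4 genes the level was 12.6 FPKM in wild type against 27.3 FPKM in the knockout. Each of the 4 was higher in the knockout, so their sum had to be. Agrp and Gnrh1 were left out of it.

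The remaining peptides were low at P7. Gnrh1 was at 0.598 FPKM in wild type against 0.981 FPKM in the knockout, a difference of 0.31. Agrp was at 0.139 FPKM and 0.132 FPKM, close to equal. Pomc and Agrp are both genes of arcuate neurons, and their differences were -3.68 and -0.01, with the limit on Agrp named above.

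**Figure D2:**
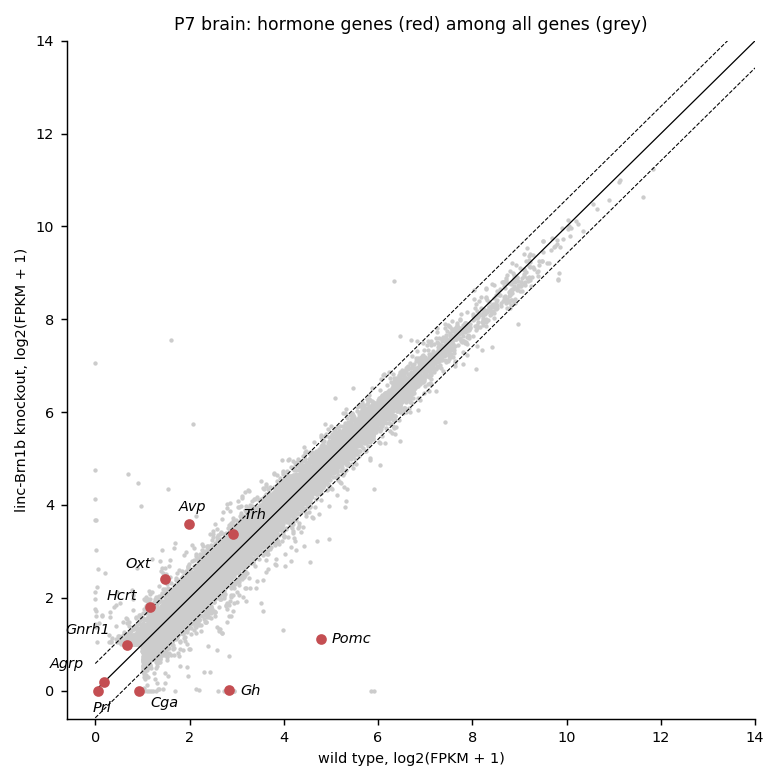
Level at P7 in wild type (x axis) and linc-Brn1b knockout (y axis), both as log2(FPKM + 1), for the genes at 1 FPKM or more in either genotype (grey) and the 10 hormone genes (red). The solid line marks equal levels and the dashed lines 1.5-fold, and Pomc and Gh lie far below the lower dashed line while Avp, Oxt and Hcrt lie above the upper.

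The order of the members also differed between the P7 genotypes. In wild type Pomc was highest, followed by Trh at 6.58 FPKM, Gh at 6.19 FPKM and Avp. In the knockout Avp was highest, followed by Trh, Oxt and Hcrt, and Pomc came next at 1.15 FPKM. Without a spread between libraries, whether neighbours in these orders differ cannot be said. The ratio of Avp over Oxt was 1.66 in wild type and 2.58 in the knockout.

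Because RNA came from whole tissue, fewer cells of a type and less RNA per cell cannot be told apart. With 1 value per group, it also cannot be read whether 1 wild-type library or both held the Pomc and Gh transcripts. Other pituitary genes were therefore examined beside them.

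Of 18 further genes of pituitary hormones and lineage, 4 passed the minimum at P7 and none was past 1.5-fold in either direction. Their summed level was 18.9 FPKM in wild type against 23.5 FPKM in the knockout. Among the 4 were Crhr1, the receptor for corticotropin-releasing hormone (9.00 FPKM in wild type against 11.3 FPKM in the knockout), the dopamine receptor Drd2 (4.40 and 6.18 FPKM) and the Trh receptor gene Trhr (2.31 and 3.38 FPKM), receptors that are also expressed in brain. The genes that define pituitary lineages were low in both genotypes, with Tshb, the beta subunit of thyrotropin, at 0.403 and 0.165 FPKM, Lhx3 at 0.165 and 0.0102 FPKM, and Tbx19, a T-box factor of Pomc cells, at 0.0464 and 0.0183 FPKM. Pou1f1, the factor of cells that make growth hormone and prolactin, was at 0.0208 and 0.0166 FPKM.

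**Figure D3:**
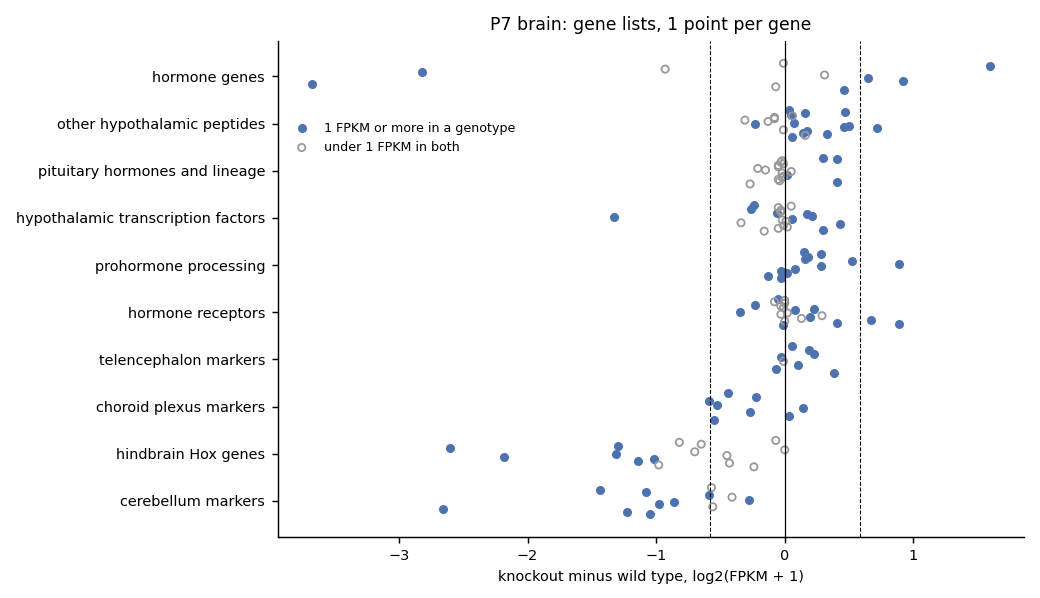
Difference at P7 between linc-Brn1b knockout and wild type in log2(FPKM + 1), 1 point per gene, for the hormone genes and 9 gene lists. Filled points were at 1 FPKM or more in a genotype, open points were not, and dashed lines mark 1.5-fold. The hindbrain Hox and cerebellum points lie to the left, as do Pomc and Gh.

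Genes of other brain regions moved with the P7 values of Pomc and Gh, and their part in the result was not tested. The genes whose level was most like that of Pomc over the 6 linc-Brn1b groups were Hoxc4, Hoxb6, Hoxa5 and AK197973, each with a Pearson r of 0.992, and Gh with 0.991, among 13513 genes compared on log2(FPKM + 1). These values describe 6 group levels from a single table and rest on P7 wild type, the only group in which any of these genes reached 2 FPKM. Hox genes are expressed in hindbrain and spinal cord and are silent in forebrain. Hoxa5 was at 5.06 FPKM in wild type and listed at 0 in the knockout, Hoxc4 at 1.2 FPKM and 0, and Hoxb6 at 1.03 FPKM and 0.

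A list of 15 Hox genes, called hindbrain Hox in the figures, was added after this was seen. It summed to 17.9 FPKM in P7 wild type and 0.136 FPKM in the knockout, and Hoxa5 and Hoxb5 were the highest in wild type. All 6 that passed the minimum were lower in the knockout, and 8 of the 15 were listed at 0 there. Of 12 cerebellum markers, added likewise, 9 passed the minimum and 8 of those were lower. Pcp2 of Purkinje cells was at 14.7 and 1.48 FPKM, and Zic1 at 38.8 and 16 FPKM. The cerebellum list summed to 134 FPKM in wild type against 59.3 FPKM in the knockout. This sum is not specific to cerebellum, since in wild-type E15.5 telencephalon the list summed to 61.8 FPKM, with Zic1 at 38.1 FPKM. Genes of the Hox and cerebellum lists were thus lower in the P7 knockout, as were Pomc and Gh, whereas Avp, Oxt and Hcrt were higher. Tissue makeup and genotype cannot be told apart.

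Telencephalon markers were examined beside them at P7. None of the 7 telencephalon markers or the 7 pan-neuronal markers past the minimum was past 1.5-fold. Of 8 choroid plexus markers 1 was lower, Folr1 at 5.2 and 3.12 FPKM. Y-linked genes summed to 0.0357 FPKM in wild type against 23.2 FPKM in the knockout, so the sex of the animals and genotype cannot be told apart either.

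**Figure D4:**
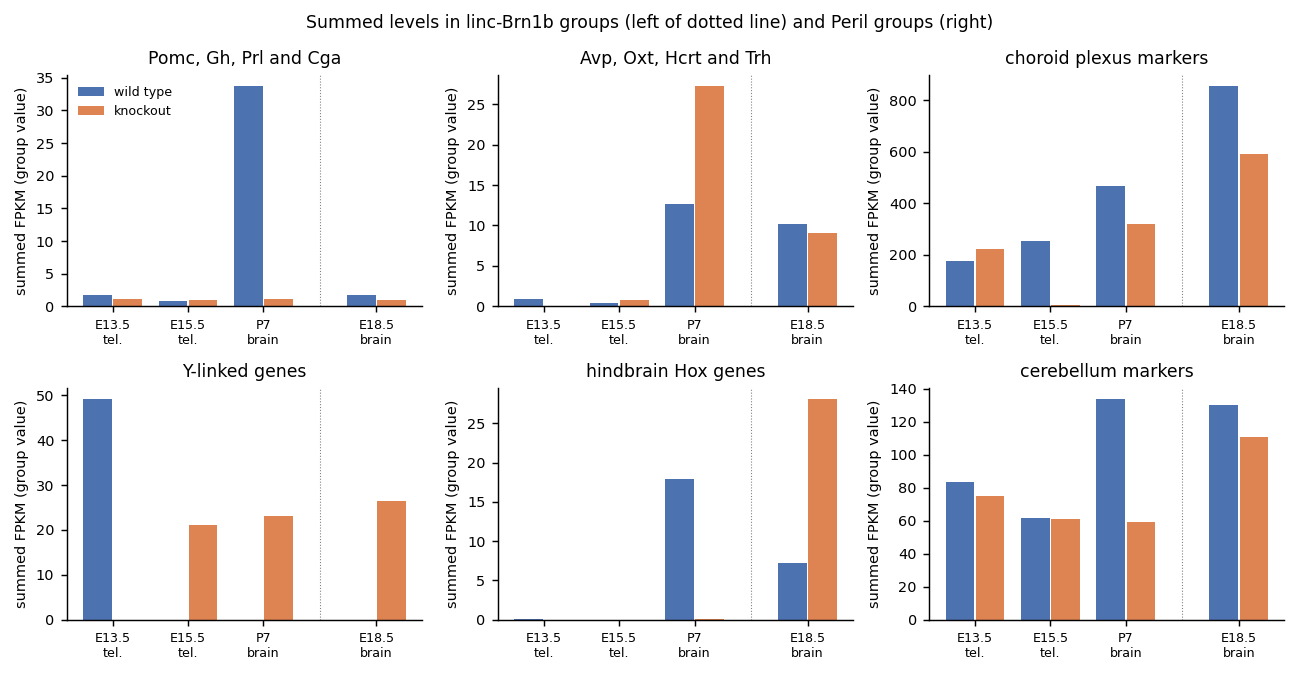
Summed FPKM in wild type (blue) and knockout (orange) of the pituitary hormone genes, of 4 hypothalamic peptide genes, and of choroid plexus, Y-linked, hindbrain Hox and cerebellum lists, 1 bar per group and with Peril to the right of the dotted line. At P7 the pituitary hormone sum was 33.8 FPKM in wild type against 1.17 FPKM in the knockout, and the Hox sum was 17.9 FPKM and 0.136 FPKM.

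Other hypothalamic peptides were measured beside the members at P7. Of 20 such genes, 13 passed the minimum, 1 was higher past 1.5-fold and none was lower. The higher gene was Pmch, melanin-concentrating hormone of the lateral hypothalamus, at 5.03 FPKM in wild type against 8.94 FPKM in the knockout. Of the 13, 12 lay above 0 with a median difference of 0.16 on the log2 scale, where the median of all genes was 0.01. The most abundant were Sst (184 and 207 FPKM), Npy (69.2 and 72.6 FPKM) and Penk (43.4 and 60.0 FPKM), which neurons of cortex and striatum also express.

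Among 20 transcription factors of the hypothalamus, 9 passed the minimum at P7 and 1 was past 1.5-fold. This was Nhlh2, a basic helix-loop-helix factor, lower in the knockout at 1.44 FPKM against 5.14 FPKM. The median difference of the 9 was 0.06.

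Peptide precursors such as Pomc, Avp and Oxt are cut by prohormone convertases and trimmed by carboxypeptidases. All 12 processing and granule genes passed the minimum at P7, with 1 higher in the knockout and a median difference of 0.15. The higher gene was Pcsk1n, an inhibitor of prohormone convertase, at 16.2 and 30.7 FPKM. The convertase genes Pcsk1 (4.05 and 6.26 FPKM) and Pcsk2 (40.1 and 48.9 FPKM) and the carboxypeptidase gene Cpe (723 and 820 FPKM) were within 1.5-fold.

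Of 20 receptor genes for these hormones, 10 passed the minimum at P7, 2 were higher in the knockout and none was lower. Oxtr, the oxytocin receptor, was at 2.27 FPKM in wild type against 4.19 FPKM in the knockout. Trhr2, a receptor for thyrotropin-releasing hormone, was at 0.512 FPKM and 1.81 FPKM. The median difference of the 10 was 0.14.

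In the telencephalon at E13.5 most of the members were barely detected, and none was called different. Only Pomc and Gnrh1 passed the minimum, and across all 13822 genes 5.59% were lower and 1.64% higher. Pomc was at 1.80 FPKM in wild type against 1.12 FPKM in the knockout, a difference of -0.40, in the same direction as at P7. Gnrh1, whose neurons migrate into the forebrain from the nasal placode, was at 0.699 FPKM and 1.40 FPKM, a difference of 0.50. Trh was under the minimum at 0.823 FPKM in wild type against 0.101 FPKM in the knockout, with a difference of -0.73. Avp and Gh were listed at 0 in both genotypes, and Prl, Cga, Oxt, Hcrt and Agrp were at most 0.135 FPKM.

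Among related genes, 3 differed past 1.5-fold at E13.5, where 5.59% of all 13822 genes were lower and 1.64% higher. With so few genes called, they are listed as values and not read as a result about the lists. Otp, a homeobox factor needed for the neurons that make Avp, Oxt and Trh, was the only 1 of 10 hypothalamic factors past 1.5-fold, at 3.19 FPKM in wild type against 0.910 FPKM in the knockout. Nts, the neurotensin precursor, was the only 1 of 7 other peptides, at 7.04 and 4.07 FPKM. Mc4r, a melanocortin receptor, was higher in the knockout at 1.65 FPKM against 0.624 FPKM, among 3 receptors past the minimum. None of the 11 processing genes or the single further pituitary gene past the minimum, and none of 8 telencephalon or 7 choroid plexus markers, was past 1.5-fold. Y-linked genes summed to 49.2 FPKM in wild type against 0.0133 FPKM in the knockout, and Hbb-b1 of red blood cells was at 106 and 34.8 FPKM.

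At E15.5 no member differed past 1.5-fold, and across all 13657 genes 0.322% were lower and 0.242% higher. Pomc was at 0.859 FPKM in wild type against 1.05 FPKM in the knockout, a difference of 0.14 and opposite in sign to those at E13.5 and P7. Gnrh1 was at 1.83 FPKM and 1.74 FPKM, nearly equal. Avp was at 0.0268 FPKM and 0.238 FPKM, both under the minimum. Trh was at 0.436 FPKM and 0.491 FPKM. Hcrt and Oxt were listed at 0 in wild type and were at 0.0422 FPKM and 0.0427 FPKM in the knockout. Gh and Cga were listed at 0 in both genotypes, Prl was at most 0.0134 FPKM, and Agrp was at 0.117 FPKM and 0.176 FPKM.

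None of the 9 other hypothalamic peptides, 9 hypothalamic factors, 11 processing genes, 2 receptors or 2 further pituitary genes past the minimum was past 1.5-fold at E15.5. Choroid plexus markers did differ at that age, with 6 of 7 lower in the knockout and a sum of 253 FPKM in wild type against 6.41 FPKM. Y-linked genes summed to 0.00662 FPKM in wild type against 21.0 FPKM in the knockout.

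**Figure D5:**
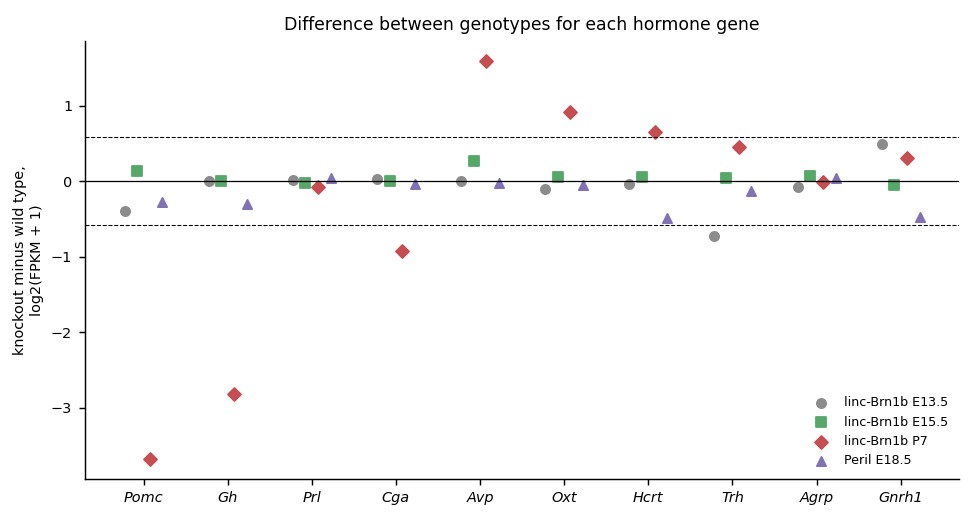
Difference between knockout and wild type in log2(FPKM + 1) for each hormone gene, with 1 point per comparison and dashed lines at 1.5-fold. The P7 points (red diamonds) of Pomc at -3.68, Gh at -2.82 and Avp at 1.60 lie farthest from 0, and Trh at E13.5 and Cga at P7 lie beyond a dashed line but were under the minimum level.

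Between the E15.5 telencephalon and the P7 brain in wild type, 7 members passed the minimum, of which 6 were higher and 1 was lower. Of all 14909 genes past it, 24.7% were higher and 26.8% lower. The 6 were under 1 FPKM at E15.5 and passed only through their P7 level, so none could have been called lower. The members were also chosen with P7 values known, so the count is a description. Pomc went from 0.859 to 26.6 FPKM, a difference of 3.89 on the log2 scale. Trh went from 0.436 to 6.58 FPKM (2.40) and Avp from 0.0268 to 2.98 FPKM (1.95). Gh, Oxt and Hcrt were listed at 0 at E15.5 and were at 6.19, 1.80 and 1.23 FPKM at P7. Gnrh1 was the lower gene, at 1.83 FPKM and 0.598 FPKM. The hypothalamus and pituitary lie outside the telencephalon, so age and dissection cannot be told apart here.

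In the knockout 6 members passed the minimum between the same ages, of which 4 were higher and none was lower. Of all 14853 genes past it, 25.6% were higher and 26.9% lower. The 4 higher genes were likewise under 1 FPKM at E15.5 and could not have been called lower. These were Avp (3.29), Trh (2.81), Oxt (2.34) and Hcrt (1.75). Pomc was at 1.05 FPKM at E15.5 and 1.15 FPKM at P7, a difference of 0.07. Avp, Oxt, Hcrt and Trh were thus higher at P7 in both genotypes, and Pomc and Gh past 1.5-fold in wild type alone. Over the 6 groups, log2(FPKM + 1) of Pomc and Gh had a Pearson r of 0.99 and that of Pomc and Avp 0.32, as a description of group values that share a table. The comparison in wild type shares its P7 group with the genotype comparison at P7.

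In E18.5 brain of the Peril strain, none of the 10 members differed past 1.5-fold. The 4 past the minimum were Avp, Trh, Pomc and Gnrh1, and 0.855% of all 14729 genes were lower and 1.12% higher. Avp was at 4.62 FPKM in the group labelled wild type against 4.54 FPKM in the group labelled knockout, and Trh at 4.28 and 3.81 FPKM. Pomc was at 1.41 and 0.996 FPKM, a difference of -0.27. Gnrh1 was at 1.02 and 0.454 FPKM, a difference of -0.47.

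The other members were under 1 FPKM at E18.5. Oxt was at 0.60 FPKM in the group labelled wild type against 0.549 FPKM in the group labelled knockout. Hcrt was at 0.681 and 0.194 FPKM, a difference of -0.49. Gh was at 0.231 FPKM in the group labelled wild type and listed at 0 in the group labelled knockout, Cga at 0.0285 FPKM and 0, and Prl was listed at 0 in the group labelled wild type against 0.0385 FPKM in the group labelled knockout. Agrp was at 0.394 and 0.435 FPKM. The ratio of Avp over Oxt was 7.70 in the group labelled wild type and 8.28 in the group labelled knockout.

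None of 12 other hypothalamic peptides, 11 hypothalamic factors, 12 processing genes, 8 receptors or 5 further pituitary genes past the minimum was past 1.5-fold at E18.5. The same 15 Hox genes summed to 7.23 FPKM in the group labelled wild type against 28.1 FPKM in the group labelled knockout, whereas at P7 the higher sum was in wild type. Of the 10 past the minimum 5 were higher in the group labelled knockout, among them Hoxa5 at 1.0 and 6.81 FPKM. The cerebellum list summed to 130 and 111 FPKM, with Pcp2 lower. Y-linked genes summed to 0.0256 and 26.4 FPKM, and Xist was at 92.5 and 47.9 FPKM.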

How the data were processed

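RNA of 17 brain and telencephalon libraries was compared within strain. The authors aligned paired reads (mm9, Tophat2), built transcripts in Cufflinks (2.0.2 per the submitters' processing notes) and ran Cuffdiff2 with default options. The authors deposited FPKM, scaled across the libraries of a table, as 1 value per group, with 0 columns of values per library. Sequencing depth is unknown. Tables were normalized separately, so comparisons were made within a table. The deposited fold changes, test statistics, p-values and q-values of the authors' own comparisons were not used.

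From these values log2(FPKM + 1) differences were computed with Python 3.11.15 and pandas 2.3.3, with 1.5-fold and a minimum of 1 FPKM as the rule. Simulated data checked the code only, with planted changes larger than 1.5-fold in genes well above the minimum and an assumed noise. They cannot say how calls of low genes near the line would fare. Alternatives were folds of 1.2 and 2, a pseudocount of 0.1 FPKM, a minimum of 0.5 FPKM or none, and centring on the median. Members and lists were chosen with earlier results of these data known, and the Hox and cerebellum lists were added after values were seen. Named genes are the 10 members, of each list the genes past 1.5-fold (at most 4 per comparison) and the 3 most abundant, and the 5 genes most like Pomc. Some list genes under this rule are not reported here. Low pituitary lineage genes and genes that check the labels were chosen after their values were seen. Starts in the tables count from 0, and 1 was added. Sequence and annotation are NCBIM37 and GENCODE vM1.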

Additional observations from a re-analysis of the deposited data

How the results depend on the processing

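No called difference changed sign under the alternatives run. Uncalled Cga and Prl at E13.5, differing by 0.03 and 0.02, did so with centring, each at -0.03. At E13.5 the count of hormone genes lower in the knockout went from 0 to 1 at 1.2-fold or a pseudocount of 0.1 FPKM (Pomc). Those rules called 15% and 7.1% of all genes lower. It also went to 1 with a minimum of 0.5 FPKM or none (Trh), where 5.13% and 2.89% of all genes were lower. The count of higher genes went from 0 to 1 at 1.2-fold or a pseudocount of 0.1 FPKM (Gnrh1). There 16.6% and 3.7% of all genes were higher. At P7 the 3 higher genes became 1 (Avp) at 2-fold, where 0.489% of all genes were higher, and 4 at 1.2-fold, with Trh added. At E18.5 the count of lower genes went from 0 to 2 at 1.2-fold (Pomc and Gnrh1) and to 1 with a pseudocount of 0.1 FPKM (Gnrh1). The share of all genes is not given for every changed count, and none is read as a result about the members. Pomc and Gh at P7 stayed lower under every alternative run, and Cga joined them with a minimum of 0.5 FPKM or none. Centring moved differences by at most 0.06 and changed none of 40 calls. No paired analysis was possible because the files hold 1 value per group, and leaving out each replicate was not run for the same reason. With no depth or spread known, differences between levels under about 1 FPKM cannot be weighed.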

Other observations

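In E14.5 lung of the Fendrr strain, which the report's comparisons do not use, Pomc was at 0.869 FPKM in wild type against 1.36 FPKM in the knockout, and Gnrh1 at 1.04 and 0.399 FPKM. The lung table was normalized separately, so these levels were not compared with those in brain. Avp, Oxt, Hcrt and Cga were listed at 0 in both lung groups, and Gh and Prl were listed at 0 in wild type and at 0.0265 and 0.0511 FPKM in the knockout. Of the other peptides in lung, Penk was at 6.33 and 9.53 FPKM, Crh at 3.44 and 1.94 FPKM and Kiss1 at 1.56 and 0.555 FPKM. Ghr, the growth hormone receptor, was at 43.6 FPKM in wild type against 43.0 FPKM in the knockout.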
